A study of Nannochloropsis oceanica with 8 samples.

Results

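Histone Kbu was compared between low and high CO2 in *Nannochloropsis oceanica* strain IMET1, a single-celled, oil-rich alga of the sea. The comparison used 4 of the 8 ChIP-seq libraries of the study, all 4 of those made with the antibody labelled Kbu, over all 6185 peaks of the deposited table. The tested group was 2 libraries from cultures aerated with air holding 0.04% CO2, and its control was 2 libraries from cultures kept at 5% CO2, sampled at 24 h. All cultures had first been aerated at 5% CO2, in f/2 medium buffered with Tris-HCl under continuous light, so the low-CO2 cells had been switched and the high-CO2 cells had not. The labels describe 3 column cultures per CO2 level without saying which culture gave which library, and a p-value therefore reflects only how far libraries of 1 group differ, possibly for technical reasons. The other 4 libraries, against H3K9me2 at the same 2 CO2 levels, are used only where Kbu is set against them.

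Kbu is the usual abbreviation of lysine butyrylation, in which an acyl group taken from butyryl-coenzyme A is joined to a lysine. On histones it sits on many of the lysines that can also be acetylated, and in mammals and rice it lies mostly around the start sites of active genes. Butyryl-coenzyme A is an intermediate of fatty acid breakdown, so the mark is studied as a link between carbon metabolism and chromatin. At low CO2 microalgae switch on a carbon concentrating mechanism, which supplies inorganic carbon to the enzyme that fixes it. No peak is paired with a gene in the tables used here, so peaks are described by position, width, spacing and chromosome, in the files' coordinates.

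For each library and peak the authors deposited a pileup, the scaled number of reads that cover the peak, and a background signal called lambda, the control. The lowest control value of a library was 11.6 and 11.3 in the low-CO2 libraries, and 23.4 and 23.1 in the high-CO2 libraries. A Kbu level is given here as the pileup over that lowest value, on the assumption that it is the genome-wide background of the library. Background below means this lowest value and not the control at the peak. The median control over all peaks was 3.53 times the lowest value at low CO2 and 1.30 times at high CO2. The median Kbu level was 2.59 at low CO2, below that control, and 3.71 at high CO2, above it (means of the library medians). A relative change is the log2 change from high to low CO2 after each library was scaled to 1 geometric mean over peaks, so that it is relative to the bulk of the peaks. Pileups were whole multiples of 1 step in 100% of peaks (within 0.02 of a step), which gives the reads behind a value. The median peak was covered by 168 and 106 reads in the low-CO2 libraries and by 816 and 592 reads in the high-CO2 libraries, with a counting error of 7.72%, 9.71%, 3.50% and 4.11% in that order. No peak was covered by fewer than 24 reads. Total depth is unknown, because reads at 1 position are not reads per library.

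Kbu was lower at low CO2 at most peaks. The median level over all peaks was 2.54 and 2.63 in the low-CO2 libraries, against 3.71 and 3.71 in the high-CO2 libraries. The libraries of the 2 CO2 levels did not overlap, and the low-CO2 median was 69.7% of the high-CO2 median, a log2 difference of -0.52 ± 0.037 (SD of the difference, n = 2 per group). An exact permutation test of 2 against 2 libraries cannot go below p = 0.33, which is the value it gave here (two-sided). Peak by peak, the level passed as lower at low CO2 at 5174 peaks and as higher at 222 (limma, Benjamini-Hochberg adjusted p under 0.05), which is 83.7% and 3.59% of the peaks tested and 87.2% in either direction. The remaining 789 did not pass. The size of the loss rests on the value taken as background. With the 5th percentile of the control in place of its lowest value the median log2 difference was -1.16, with the control at the same peak it was -1.95, and the pileup as deposited had a median of 29.5 and 29.6 at low CO2 and 86.8 and 85.6 at high CO2.

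**Figure D1:**
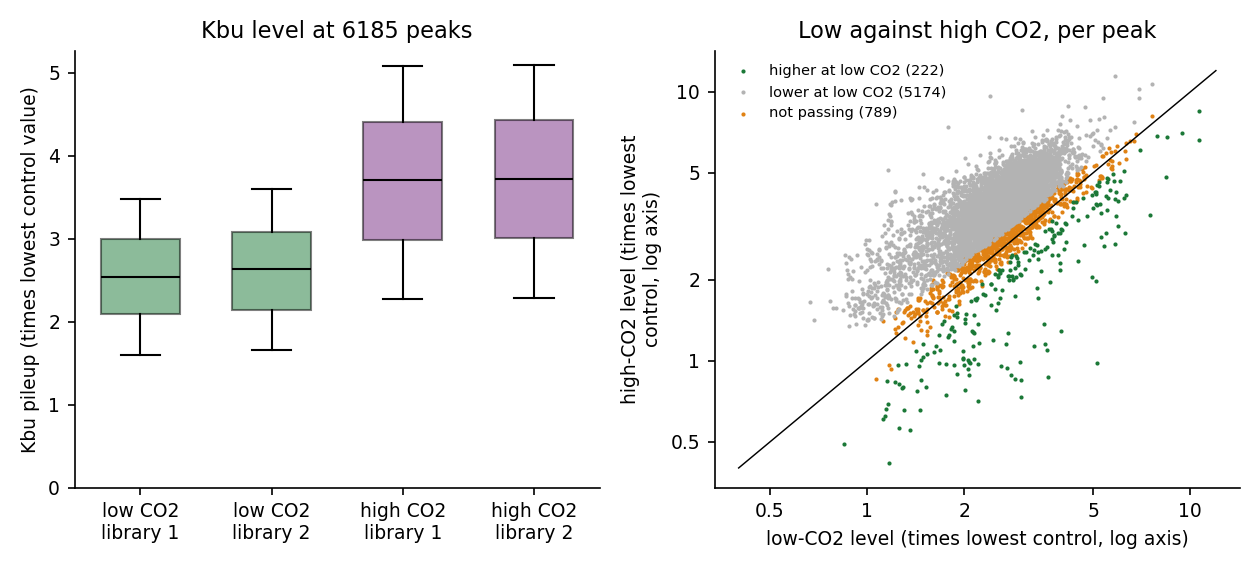
Left, box plots of the Kbu level (pileup over the lowest control value of the library) at 6185 peaks in each library, with the median, the quartiles, and whiskers at the 10th and 90th percentiles. Right, each peak's mean low-CO2 level (horizontal axis) and mean high-CO2 level (vertical axis) on log axes, with the line of equal levels; 5174 peaks that passed as lower at low CO2 lie above the line and 222 that passed as higher lie below it.

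High levels of Kbu were few at low CO2. A mean level of 5 or more was found at 90 peaks at low CO2, against 685 at high CO2. Of these 685, 49 (7.15%) were still at 5 or more at low CO2, 393 (57.4%) lay between 3 and 4, and 161 (23.5%) between 2 and 3. At the other end, 64 peaks lay under the background (a level under 1) at low CO2 and 46 at high CO2, and only 1 peak was in both sets. Most peaks with strong Kbu at high CO2 thus kept a lower level at low CO2, while the few peaks under the background at high CO2 had mostly risen above it. Both sets were picked by their level at high CO2. Such a choice alone favours a less extreme level at the other CO2 level, also for the 64 peaks picked at low CO2.

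A level of 2 was used as a bound, set over the lowest control value. It does not show that a peak stands clear of the control at its own position. Both libraries of both groups reached a level of 2 at 4586 peaks, and 289 peaks stayed below it in all 4 libraries. At 685 peaks it was reached in both high-CO2 libraries and in neither low-CO2 library. Their median level was 1.62 and 1.66 at low CO2, against 2.84 and 2.84 at high CO2, and they lay on all 30 chromosomes. The reverse, a level of 2 in both low-CO2 libraries and in neither high-CO2 library, was seen at 49 peaks on 26 chromosomes. These had a median level of 2.43 and 2.46 at low CO2, against 1.35 and 1.41 at high CO2. Their median width was 663 bp, against 806 bp for the 685 peaks that reached 2 only at high CO2 and 1031 bp over all peaks, so peaks that crossed this level in either direction were narrower than most. The 49 were closely spaced, with a median gap of 1069 bp to the nearest peak against 2045 bp over all peaks. The pileup of H3K9me2, which marks silent chromatin in plants and animals, passed as higher at low CO2 at 18 of the 49 (36.7%), against 4.01% of all peaks (limma, adjusted p under 0.05). Over all peaks H3K9me2 passed as lower at 1.03% and in either direction at 5.04%. Its median level was 1.50 and 1.65 in its low-CO2 libraries, against 1.35 and 1.44 at high CO2. The median control of these libraries was 3.53 and 3.52 times its lowest value at low CO2, against 1.28 and 1.24 times at high CO2. At low CO2 the median level of H3K9me2 thus lay below its control. A higher H3K9me2 pileup here and below is therefore not shown to be a gain over the control.

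Relative to the bulk, Kbu was redistributed among the peaks in both directions. The relative change passed as higher at low CO2 at 1347 peaks (21.8%) and as lower at 1556 (25.2%), so 46.9% changed in either direction (limma, adjusted p under 0.05, n = 2 per group). The change in level is the relative change plus a constant of -0.50, so a relative fall is always a larger fall in level. All 1556 relative falls accordingly passed as falls in level. Of the 1347 relative rises, 222 were rises in level, 389 were falls in level that were smaller than those of the bulk, and 736 did not pass in level. The spread of the relative change over peaks had an SD of 0.38 on the log2 scale. The 2 low-CO2 libraries differed from each other with an SD of 0.17 and the 2 high-CO2 libraries with an SD of 0.089. The number of calls depended on which libraries set this spread between libraries. With 1 library left out, the spread comes only from the pair of the other group. Fewer peaks passed without a high-CO2 library, and more passed without a low-CO2 library. With the authors' normalised value, which divides by the control at the same peak, the split was 2474 higher and 1880 lower.

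The ranking of peaks was kept better within a CO2 level than between levels. Across the 6185 peaks, log2 pileups correlated at 0.93 (Pearson) between the low-CO2 libraries and at 0.98 between the high-CO2 libraries, against 0.66 to 0.67 between libraries of different CO2 levels. These correlations describe peaks of the same libraries and carry no test. Of the 618 peaks with the highest pileup in low-CO2 library 1, 463 (74.9%) were among the highest 618 of low-CO2 library 2 and 280 (45.3%) among those of high-CO2 library 1. Between the high-CO2 libraries 520 (84.1%) were shared. For the lowest 618 peaks the shared numbers were 507 between the low-CO2 libraries, 336 between low-CO2 and high-CO2 library 1, and 554 between the high-CO2 libraries.

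The share of Kbu lost depended on the CO2 level by which peaks were ranked. To keep the noise of the ranking out of the change, peaks were ranked by 1 library into 10 classes of equal size and the change was taken from the others. Ranked by high-CO2 library 1, the lowest class had a median level of 1.56 and 1.59 in the low-CO2 libraries and 1.86 in high-CO2 library 2, so that 85.8% of the level was left. The highest class had a median level of 3.40 and 3.48 in the low-CO2 libraries and 5.55 in high-CO2 library 2, so that 61.2% was left. The share left fell in every step between these classes, and ranking by high-CO2 library 2 gave 85.9% and 61.8% at the ends. Ranked by low-CO2 library 1, the order was turned, with 60.0% left in the lowest class and 80.1% in the highest. The graded loss thus holds for the order of peaks at high CO2 and not for that at low CO2. With correlations of 0.66 to 0.67 between CO2 levels, peaks extreme at 1 level tend to be less extreme at the other. The ranking alone favours this turn, so the grading cannot be read as a trait of strong peaks. The spread of levels over peaks differed little, with an SD of log2 pileup of 0.47 and 0.47 at low CO2 and 0.50 and 0.49 at high CO2.

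**Figure D2:**
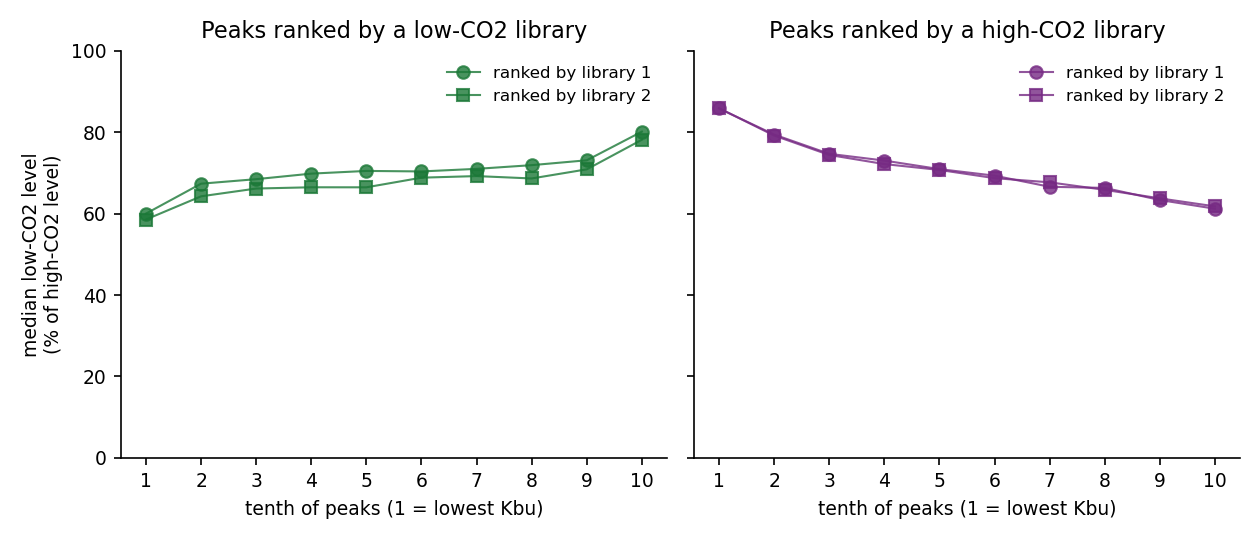
Median low-CO2 Kbu level as a percentage of the high-CO2 level in 10 classes of peaks ranked by 1 library, which is left out of the percentage. Ranked by a low-CO2 library (left) the share left is lowest in the first class (60.0% and 58.5%) and highest in the last, and ranked by a high-CO2 library (right) it runs from 85.8% and 85.9% down to 61.2% and 61.8%.

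On the pileup, Kbu changed differently in the narrowest and widest peaks than in those between. Peaks under 500 bp (271 peaks) had a median level of 1.50 and 1.54 in the low-CO2 libraries, against 1.77 and 1.81 in the high-CO2 libraries. Peaks of 1000 to under 1500 bp (3094 peaks) had 2.75 and 2.86 at low CO2, against 4.09 and 4.11 at high CO2. Level therefore rose with width at both CO2 levels, and the gap between CO2 levels was smallest in the narrowest peaks. The median relative change was 0.20 in peaks under 500 bp, 0.01 in those of 500 to under 1000 bp (2569 peaks), -0.06 in those of 1000 to under 1500 bp and 0.05 in those of 1500 bp or more (251 peaks), against -0.03 over all peaks.

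Measured on class medians in each library, the narrowest peaks stood 0.76 and 0.77 log2 units below the median of all peaks in the low-CO2 libraries (values of -0.76 and -0.77), and the high-CO2 libraries had values of -1.07 and -1.04. The difference between CO2 levels in this offset was 0.28 ± 0.020 for peaks under 500 bp and 0.11 ± 0.016 for peaks of 1500 bp or more (SD of the difference, n = 2 per group). It was -0.03 ± 0.0039 for peaks of 1000 to under 1500 bp. The libraries of the 2 CO2 levels did not overlap in any of the 4 width classes, but an exact permutation test of 2 against 2 cannot go below p = 0.33.

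The counts of calls followed the same pattern. Relative rises made up 43.9% of peaks under 500 bp and 39.0% of peaks of 1500 bp or more, against 23.8% and 16.7% in the classes of 500 to under 1000 and 1000 to under 1500 bp and 21.8% of all peaks. Relative falls made up 9.96% of peaks under 500 bp, 22.5%, 28.3% and 29.9% in the wider classes in rising order of width, and 25.2% of all peaks. Without high-CO2 library 1 the rises were 31.0% and 31.9% in the narrowest and widest class, against 13.0% of all peaks, and without high-CO2 library 2 they were 29.9% and 31.9% against 13.0%. The falls under 500 bp numbered 27 with all libraries, 4 without high-CO2 library 1 and 5 without high-CO2 library 2. The control moved with width as well. Its median was 1.63, 2.94, 4.07 and 5.31 times the lowest value at low CO2 from the narrowest to the widest class, against 1.19, 1.26, 1.33 and 1.44 times at high CO2. Its part in the change of the pileup was not tested. With the pileup divided by the control at the same peak, the difference between peaks under 500 bp and those of 1500 bp or more was 1.61 log2 units, against 0.18 on the pileup alone. On that ratio 15.9% of peaks of 1500 bp or more passed as higher and 62.9% as lower, against 31.8% and 40.8% of all peaks. With the authors' normalised value these shares were 21.9% and 54.6%, against 40% and 30.4%. The excess of rises in the widest class was thus not seen on either measure. Under 500 bp, 94.5% and 96.3% passed as higher.

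**Figure D3:**
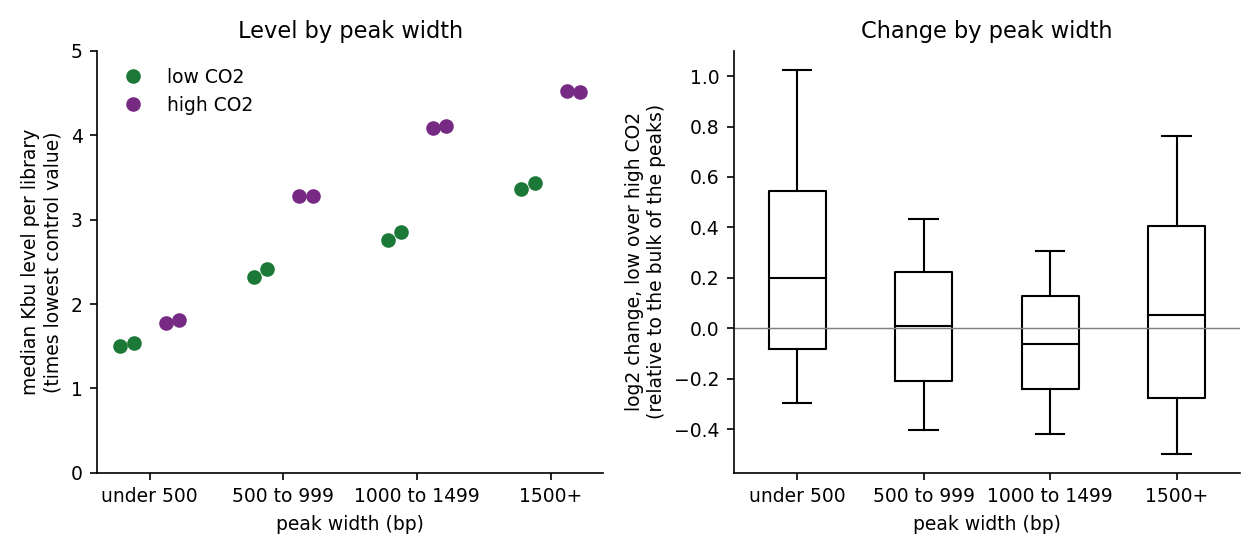
Left, median Kbu level of each library (pileup over its lowest control value) in 4 classes of peak width, 1 point per library. Right, box plots of the log2 change relative to the bulk of the peaks, with medians of 0.20, 0.01, -0.06 and 0.05, quartiles, and whiskers at the 10th and 90th percentiles; the narrowest and widest classes have the longest upper whiskers (1.02 and 0.76).

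Width and level went together. With peaks split by high-CO2 library 1 into 3 classes of equal size, all 271 peaks under 500 bp lay in the lower class. Within that class, with the change taken from high-CO2 library 2, the median relative change was 0.22 under 500 bp, 0.13 at 500 to under 1000 bp, 0.15 at 1000 to under 1500 bp and 0.21 at 1500 bp or more. The medians over the whole set for the narrowest peaks and those of 1000 to under 1500 bp were 0.20 and -0.06. Levels still differed by width within the lower class, with a median log2 scaled pileup in high-CO2 library 2 of -0.97 under 500 bp and -0.27 at 1000 to under 1500 bp, so level and width were not separated there. In the upper class, peaks of 1500 bp or more had a median change of -0.00 (146 peaks), against -0.14 at 1000 to under 1500 bp (1462 peaks) and -0.17 at 500 to under 1000 bp (447 peaks). On the pileup, wide peaks with strong Kbu therefore lost less than other strong peaks at the median.

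The wide peaks did not move as 1 group. Of the 251 peaks of 1500 bp or more, 98 passed as higher relative to the bulk, 75 as lower and 78 did not pass. Without high-CO2 library 1 the rises were 80 and the falls 49, and without high-CO2 library 2 they were 80 and 43. The 98 had a median level of 4.56 at low CO2 and 4.31 at high CO2, and the 75 had 2.39 at low CO2 and 4.65 at high CO2 (means of the library medians), so the 2 sets started close together at high CO2. H3K9me2 pileup passed as higher at low CO2 at 51 of the 98 (52.0%), at 13 of the 78 (16.7%) and at 6 of the 75 (8.0%), against 27.9% of all wide peaks and 4.01% of all peaks (limma, adjusted p under 0.05). In peaks under 500 bp the corresponding shares were 12 of 119 (10.1%) where Kbu rose and 0 of 27 where it fell. The median control at low CO2 was 5.28 times its lowest value at the 98 wide rises and 5.05 times at the 75 wide falls, and 1.46 and 1.44 times at high CO2. The control was thus close to equal in the 2 sets.

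Spacing went with small differences. Peaks were split by the gap to the nearest peak into 4 classes of about equal size. The class closest to a neighbour (a gap of at most 1319 bp) had a median level of 2.51 and 2.58 at low CO2, against 3.61 and 3.61 at high CO2. The class farthest from a neighbour (a gap above 3104 bp) had 2.54 and 2.63 at low CO2, against 3.81 and 3.83 at high CO2. The classes were thus alike at low CO2 and apart at high CO2, and the median relative change was 0.01 in the closest class and -0.07 in the farthest. The offset of the closest from the farthest class differed between CO2 levels by 0.06 ± 0.0077 log2 units (SD, n = 2 per group). Relative rises made up 25.8% of the closest and 17.7% of the farthest class, and relative falls 22.8% and 29.8%. Width differed along with spacing, with a median of 935 bp in the closest and 1091 bp in the farthest class. Within peaks of 1000 to under 1500 bp rises still made up 20.8% of the closest (597 peaks) and 14.6% of the farthest class (899 peaks). Rises in level were 99 in the closest class (6.40%) and 39 in the farthest (2.52%), against 3.59% of all peaks.

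Distance from the chromosome ends was measured to the outermost peak, since chromosome lengths are not in the tables. The 247 peaks within 20 kb of it had a median level of 2.37 and 2.41 at low CO2, against 3.55 and 3.49 at high CO2. Their median relative change was 0.00, but calls were more frequent in both directions, with 29.1% higher and 29.6% lower, than among the 5200 peaks at 100 kb or more, with 21.8% and 24.0%. The 738 peaks between 20 and 100 kb had 19.5% higher and 32.1% lower.

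The changes of neighbouring peaks had little in common. The relative changes of the 6155 pairs of neighbours correlated at 0.053 (Pearson, across peaks that share libraries, no test), at 0.10 in the 1540 pairs with the smallest gaps and at 0.065 in the 1539 with the largest. A peak that rose was followed by another rise in 23.5% of cases, against 21.8% of all peaks, and a peak that fell by another fall in 28.8%, against 25.2%. At the closest range the level itself was shared at low CO2. For the 97 pairs less than 500 bp apart, log2 pileups of neighbours correlated at 0.42 in low-CO2 library 1 and at 0.021 in high-CO2 library 1.

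All 30 chromosomes lost Kbu, and they differed little in how much. The median log2 change in level ran from -0.63 on chromosome 30 to -0.45 on chromosome 24. On the scale relative to the bulk these medians were -0.12 and 0.05. Which chromosome stood highest depended on the measure. As the difference between CO2 levels in the chromosome's median minus that of all peaks, chromosome 30 was again lowest at -0.17 ± 0.047, while chromosome 24 was at -0.01 ± 0.020 with overlapping libraries and chromosomes 17 and 5 were highest at 0.05 ± 0.026 and 0.04 ± 0.020 (SD of the difference, n = 2 per group). The SD of the median relative change over chromosomes was 0.041, against a median SD between libraries of 0.020 for a chromosome's difference between CO2 levels (range 0.0031 to 0.062). The 2 low-CO2 libraries lay on 1 side of both high-CO2 libraries for 18 chromosomes, 9 of them above and 9 below, and overlapped for 12. For comparison, single peaks lay wholly above in 34.6% of cases and wholly below in 40.5%. Relative falls outnumbered rises on 20 chromosomes and rises outnumbered falls on 9, with equal shares on chromosome 23.

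Chromosome 30, the one with the fewest peaks (75), had a median level of 2.28 and 2.26 at low CO2, against 3.66 and 3.66 at high CO2. Of its peaks, 37.3% fell and 16.0% rose relative to the bulk, though 28 falls became 15 without high-CO2 library 2. Chromosome 24 (144 peaks) had a median level of 2.56 and 2.61 at low CO2, against 3.75 and 3.73 at high CO2, and there 24.3% fell and 25.7% rose. Its level at low CO2 was near that of all peaks, as was its level at high CO2. Chromosomes 28, 6 and 2 were singled out after their values were seen. Chromosome 28 (109 peaks) had 35.8% falls and 19.3% rises. Chromosome 6 (272 peaks) had 34.9% falls and 16.5% rises, and chromosome 2 (376 peaks), the one with the most peaks, had 17.6% falls and 24.5% rises. The order of chromosomes 6 and 2 held without any 1 Kbu library, with falls of 22.1% to 41.9% on chromosome 6 and 9.04% to 26.9% on chromosome 2. With the pileup over the control at the same peak that order did not hold. Falls there were 42.6% on chromosome 6 and 44.1% on chromosome 2. With the authors' normalised value it did not hold either, with falls of 30.9% and 32.7%. Median width ran from 981 to 1077 bp over the chromosomes, and the median control at low CO2 from 3.34 to 3.78 times its lowest value.

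**Figure D4:**
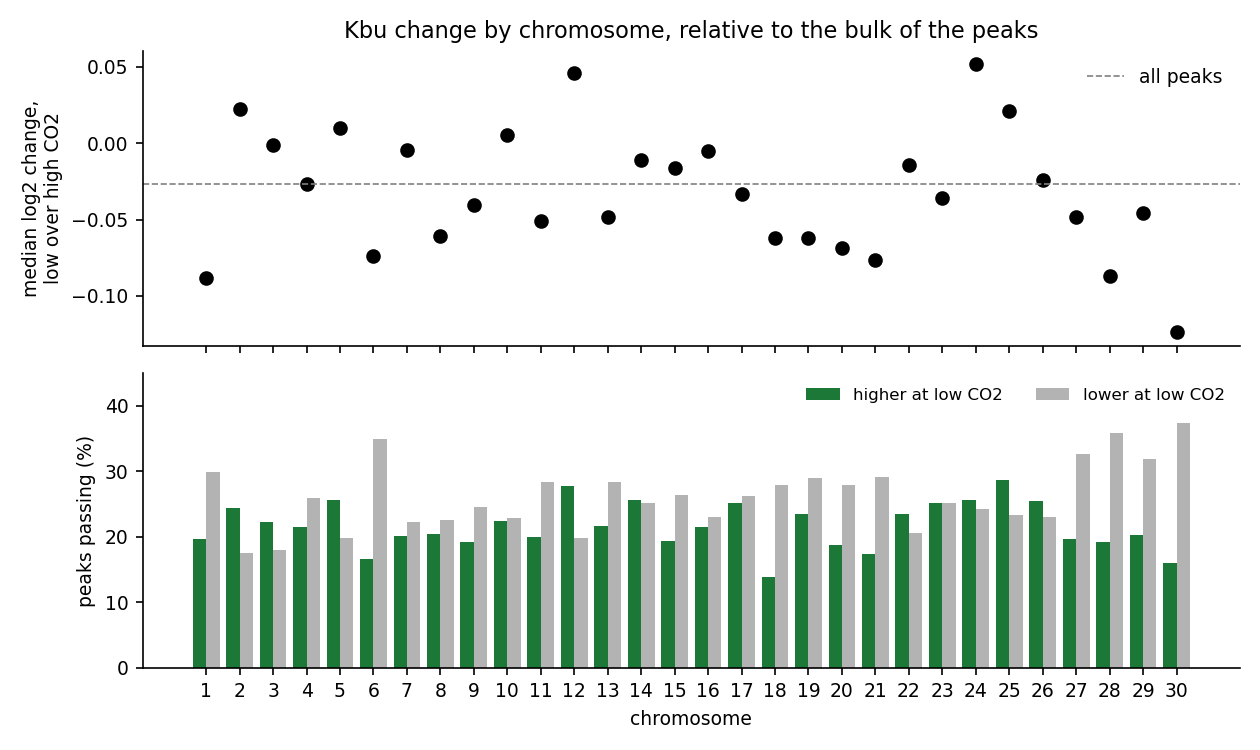
Top, median log2 change of Kbu from high to low CO2 relative to the bulk of the peaks on each of 30 chromosomes, with the median of all peaks (-0.03) as a dashed line. Bottom, percentage of each chromosome's peaks that passed as higher (green) or lower (grey) at low CO2 (limma, adjusted p under 0.05); falls reach 37.3% on chromosome 30, 35.8% on chromosome 28 and 34.9% on chromosome 6.

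Unbroken runs of neighbours with the same call were short. Of the runs of rises, 797 held 1 peak and 1 held 6, and of the runs of falls 804 held 1 peak and 2 held 8. The run of 6 rises lay on chromosome 22 from 518707 to 551086 (peak3181 to peak3186). At its first peak, peak3181 (458 bp, 518707 to 519165), the level was 2.53 and 2.68 at low CO2, against 0.932 and 0.979 at high CO2. Kbu was thus under the background at high CO2 and clearly above it at low CO2, a relative change of 1.95 (SE 0.10) and a change in level of 1.45 (limma, adjusted p = 4.4e-07 and 1.2e-05). At its last peak, peak3186 (836 bp, 550250 to 551086), the level was 4.66 and 4.87 at low CO2, against 4.94 and 4.85 at high CO2. There the groups overlapped in level, so peak3186 kept its level over the background while the bulk of the peaks did not. Over the control at the same peak, not scaled, its Kbu was 1.36 and 1.44 at low CO2, against 3.21 and 3.37 at high CO2. On that ratio peak3182, peak3183 and peak3184 were lower at low CO2 too, while peak3181 and peak3185 were higher. Of the 6 peaks, 4 passed as higher in level, and all 6 passed as higher on the relative scale without any 1 Kbu library. Between 2 of them, peak3185 and peak3186, the gap was 48 bp. At peak3185 the H3K9me2 level was 3.56 and 3.73 at low CO2, against 1.24 and 1.44 at high CO2, and H3K9me2 passed as higher at 2 of the 6 (peak3185 and peak3186).

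The run of 8 falls with the larger mean change lay on chromosome 6 from 126564 to 183518 (peak5128 to peak5135). Relative changes ran from -1.20 to -0.23 and changes in level from -1.71 to -0.73, and all 8 passed as lower in level. The largest fall was at peak5134 (751 bp, 165775 to 166526), where the level was 1.36 and 1.04 at low CO2, against 3.96 and 3.83 at high CO2. A clear peak was thus brought close to the background, where 90 and 42 reads covered it in the low-CO2 libraries. The smallest was at peak5131 (1395 bp, 147724 to 149119), with levels of 3.42 and 3.33 at low CO2, against 5.75 and 5.48 at high CO2. It and 2 others, peak5132 and peak5135, no longer passed on the relative scale without high-CO2 library 1 (limma, adjusted p = 0.24, 0.31 and 0.19) or library 2 (0.080, 0.20 and 0.15), and peak5132 did not pass without low-CO2 library 2 (0.054). Over the alternatives that leave out 1 library, 5 to 8 of the 8 passed. With the pileup over the control at the same peak 6 passed, all but peak5128 and peak5129. With the authors' normalised value 4 passed, and peak5128 changed sign.

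The 8 largest rises among peaks above the lower quartile of mean pileup were at peaks wider than the median of 1031 bp. They are those with the largest relative change among 98 peaks that rose on both scales, had a mean pileup above the lower quartile and had both low-CO2 libraries above both high-CO2 libraries. They were 1127 to 2457 bp wide and lay on 7 chromosomes. Larger rises were left out by this rule, since rises that passed reached 2.14, 2.53, 2.57 and 2.89 in the 4 width classes in rising order of width. At peak2792 (chromosome 20, 242915 to 244632) the level was 5.19 and 4.99 at low CO2, against 1.88 and 2.10 at high CO2. This was the largest relative change of the 8, at 1.86 (SE 0.08), and the change in level was 1.36 (limma, adjusted p = 1.6e-07 and 1.1e-05). Kbu at peak2301 (chromosome 19, 463211 to 465668), the widest of the 8, was 7.32 and 7.73 times the background at low CO2, against 3.53 and 3.43 at high CO2. It became 1 of the 90 peaks with a mean level of 5 or more at low CO2.

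At peak814 (chromosome 11, 1152372 to 1153910) the level was 4.93 and 4.97 at low CO2, against 2.00 and 2.11 at high CO2. At peak1461 (chromosome 14, 926160 to 927585), the largest rise by this rule among peaks of 1000 to under 1500 bp, it was 5.88 and 5.79 at low CO2, against 2.64 and 2.82 at high CO2. At peak1525 (chromosome 15, 255192 to 256806) it was 6.19 and 6.41 at low CO2, against 2.82 and 3.16 at high CO2. In all of these the groups were far apart, and the low-CO2 level was at or near 5, which few peaks reached at low CO2. The rule favours such peaks. The others were peak1683 (chromosome 16, 42601 to 44041), peak749 (chromosome 11, 805408 to 806535) and peak4390 (chromosome 3, 1642707 to 1644203), with relative changes of 1.53, 1.43 and 1.41. Peak749 had the widest gap between low-CO2 libraries, at 4.05 and 4.94, against 2.36 and 2.34 at high CO2.

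The pileup of H3K9me2 rose at most of these peaks as well. It passed as higher at low CO2 at 7 of the 8, all but peak814 (limma, relative change 0.38, adjusted p = 0.17), against 4.01% of all peaks. The Kbu change was above the H3K9me2 change by 0.60 at peak749 and by up to 1.39 at peak814, a direction that the choice of peaks by their Kbu change favours. The control at low CO2 stood at 2.47 to 5.27 times its lowest value at the 8 peaks. At high CO2 it stood at 1.28 to 1.75 times. Over the control at the same peak, not scaled to the bulk, Kbu was lower at low CO2 at peak814, peak2301, peak1461, peak1525 and peak4390. At peak4390 this ratio was 1.13 and 1.15 at low CO2, against 2.36 and 2.55 at high CO2. It was higher at low CO2 at peak2792 and peak1683, and the groups overlapped at peak749. The remaining width classes each added 1 rise by the same rule. At peak2929 (chromosome 21, 76570 to 77537, 967 bp) the Kbu level was 3.83 and 3.55 at low CO2, against 1.97 and 1.97 at high CO2. Over the control at the same peak, not scaled, its Kbu was 1.13 and 1.06 at low CO2, against 1.55 and 1.63 at high CO2. There H3K9me2 pileup rose too, by 1.32 on the relative scale against 1.41 for Kbu (limma, adjusted p = 6.3e-14 and 1.3e-06). The difference between the marks was 0.09 (SE 0.17, limma interaction, adjusted p = 0.79). The 1 eligible rise under 500 bp was peak3184 (chromosome 22, 548953 to 549345), which is part of the run of 6, at 2.93 and 2.93 at low CO2 and 2.08 and 2.47 at high CO2.

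The 8 largest falls by the same rule were at peaks with strong Kbu at high CO2, which the rule itself favours. A low level at low CO2 must be offset by a high level at high CO2 to pass the bound on mean pileup. They were taken from 1157 peaks with the signs turned, lay on 8 chromosomes and were 863 to 2454 bp wide. At peak3847 (chromosome 28, 81058 to 82866) the level was 1.78 and 1.76 at low CO2, against 7.40 and 7.40 at high CO2. The relative change was -1.56 (SE 0.07) and the change in level -2.06 (limma, adjusted p = 1.6e-07 and 1.5e-06). At peak5938 (chromosome 9, 111821 to 113136), the largest fall by this rule among peaks of 1000 to under 1500 bp, the level was 1.42 and 1.57 at low CO2, against 5.15 and 4.75 at high CO2. At peak2473 (chromosome 2, 473857 to 474804), the largest by this rule among peaks of 500 to under 1000 bp, it was 1.44 and 1.57 at low CO2, against 4.33 and 4.54 at high CO2. All 3 went from well above the background to a level under 2, and the 2 groups of libraries were far apart. No peak under 500 bp met the rule for falls.

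Kbu at peak5367 (chromosome 6, 1281463 to 1283917) was 2.40 and 2.39 times the background at low CO2, against 9.67 and 9.71 at high CO2, a relative change of -1.51. At peak215 (chromosome 1, 1036123 to 1037370) it was 2.18 and 1.86 at low CO2, against 5.74 and 5.62 at high CO2, and at peak4721 (chromosome 4, 1166632 to 1167495) 1.65 and 1.74 at low CO2, against 4.66 and 4.89 at high CO2. The remaining falls, peak1640 (chromosome 15, 746767 to 748368) and peak3755 (chromosome 27, 151359 to 153694), had relative changes of -1.01 and -1.0. Only at peak3755 did the pileup of H3K9me2 pass, and it was higher at low CO2 (limma, relative change 0.60, adjusted p = 0.0038). On the pileup the marks thus went in opposite directions there. The control at low CO2 stood at 3.20 to 13.0 times its lowest value at these 8 peaks, against 2.47 to 5.27 times at the 8 rises, and its part in the falls was not tested. At least 63 reads covered each of these peaks in low-CO2 library 2.

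**Figure D5:**
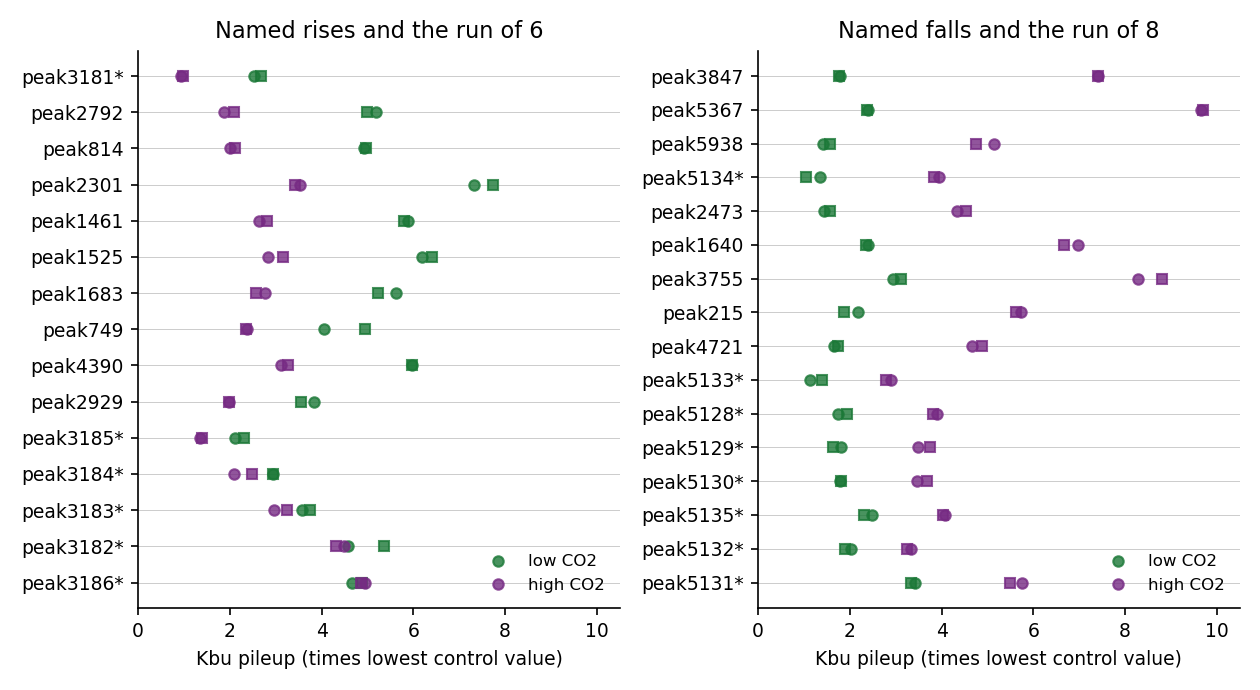
Kbu level (pileup over the lowest control value) in each library at the named peaks, with low CO2 in green and high CO2 in purple, library 1 as circles and library 2 as squares; an asterisk marks peaks of the run of 6 rises or the run of 8 falls. At the 8 largest rises and 8 largest falls both low-CO2 libraries lie apart from both high-CO2 libraries, with peak3847 at 1.78 and 1.76 against 7.40 and 7.40, and at peak3186 they overlap.

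Kbu and H3K9me2 were set against each other in 1 test over all 8 libraries. The relative change of Kbu was above that of H3K9me2 at 346 peaks (5.59%) and below it at 385 (6.22%; limma interaction, adjusted p under 0.05). Where it was above, the median width was 821 bp and the Kbu level 2.60 and 2.66 at low CO2, against 2.47 and 2.53 at high CO2. Where it was below, the median width was 1133 bp and the Kbu level 2.21 and 2.29 at low CO2, against 4.54 and 4.54 at high CO2. By width, the Kbu change was above at 49 peaks under 500 bp (18.1%) and below at 3 (1.11%). At 1500 bp or more it was above at 22 (8.76%) and below at 51 (20.3%), both over the shares of all peaks. These counts were smaller without any 1 Kbu library, with 159 above and 192 below without low-CO2 library 1, 147 and 182 without low-CO2 library 2, 132 and 145 without high-CO2 library 1, and 147 and 154 without high-CO2 library 2.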

How the data were processed

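ChIP-seq pileups of 4 Kbu libraries were analysed at 6185 peaks, with 4 H3K9me2 libraries for the interaction. Per the submitters' processing notes the tools included MACS2, deepTools, BWA, Trim Galore and Picard. The sources used here give no version, setting, genome build or account of peak calling. The authors deposited 3 signal values per library, namely pileup, control (lambda) and a normalised value, which is the whole part of 10 times pileup over control divided by 1 factor per library (checked, 100% of peaks). Per the file headers the authors' own comparison adds a log2 fold change, a score (stat) and p-values, which were not used for calls.

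These are not read counts, so no count test was run. Low was compared with high CO2 with R 4.3.3 and its package limma 3.58.1 (mean trend, empirical Bayes) on log2 pileup with no pseudocount, since all pileups were above 0, after scaling to 1 geometric mean per library or dividing by the library's lowest control value. The 2 scales differ by -0.50 at every peak. Adjustment ran over all 6185 peaks, two-sided, with a threshold of 0.05. The fit was tested on simulated data. Where 1 library is left out, the lone one is assumed to vary like the other group. Spacing classes use the gap between peak edges, and width is end minus start. The tables do not say whether starts count from 0 or 1.

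Peaks, classes and tests were chosen with earlier results of these data known. Named peaks were the 8 largest relative rises and falls (rule in the text), the largest in each of 4 width classes, the longest runs and the chromosomes with the highest and lowest median change. Peaks singled out outside this rule are named as such. The rule on mean pileup leaves out peaks that rose from very low levels. Replicate numbers of 2 pairs were not taken to pair libraries. Tables and plots used SciPy 1.17.1, pandas 2.3.3, Matplotlib 3.10.9 and NumPy 2.4.6 under Python 3.11.15. No sequence is shown, since no genome was used here.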

Additional observations from a re-analysis of the deposited data

Results flagged for a closer look

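The change of Kbu from high to low CO2 differed from that of H3K9me2 at 731 peaks (11.8% of those tested; limma interaction over 8 libraries, adjusted p under 0.05). It stood out because the measured change over the same CO2 contrast was not the same in the 2 marks. H3K9me2 was weak, with median levels of 1.35 to 1.65 in its libraries, and the part of this in the difference was not tested. The number was smaller without any 1 Kbu library, with 132 to 159 peaks above and 145 to 192 below.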

How the results depend on the processing

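On the relative scale 892 peaks were higher and 962 lower at an adjusted p under 0.01, and 343 and 254 with at least a 1.5-fold change. Without the lowest 25% of peaks by level 890 were higher, from fewer peaks tested. With the pileup over the control at the same peak 2524 were lower, and with the authors' normalised value 2474 were higher; the cause was not tested. Leaving out 1 library gave 803 to 1735 higher and 826 to 2033 lower. In level, a 1.5-fold minimum left 90 higher and 2633 lower, the filter left 99 higher, the 5th percentile of the control left 48 higher, and the unscaled pileup over the control at the same peak, an alternative chosen after seeing the data, gave 101 higher and 6045 lower. Scaled to 1 geometric mean, so relative to the bulk, that ratio gave 1967 higher and 2524 lower. Leaving out 1 library gave 158 to 294 higher and 4492 to 5401 lower. The median log2 difference was -0.68 and -1.16 with the 1st and 5th percentile of the control, -1.95 with the control at the same peak, and -0.55 to -0.49 with 1 library left out.

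The filter left 178 peaks where the Kbu change was above the H3K9me2 change. With 1 Kbu library left out there were 132 to 159 above and 145 to 192 below. With the pileup over the control at the same peak, the offset of peaks under 500 bp was 1.61 from those of 1500 bp or more and 1.46 from those of 1000 to under 1500 bp, that of the closest from the farthest spacing class 0.11 and that of chromosome 24 from chromosome 30 0.19. With 4 classes of equal size in place of the fixed widths, the first of these was 0.13. With 1 library left out these 4 offsets were 0.16 to 0.19, 0.30 to 0.32, 0.056 to 0.066 and 0.14 to 0.18. Among named peaks, peak5128 changed sign with the authors' normalised value (0.026, limma, adjusted p = 0.84), where peak5129 (-0.07, 0.55), peak5132 (-0.12, 0.30) and peak5135 (-0.06, 0.58) also lost their calls, and peak5129 (0.055) and peak5128 (0.071) did so with the scaled ratio to the control. Scaled to 1 median, peak5132 did not pass (0.055). A replicate block gave 1377 higher and 1619 lower on the relative scale, 237 and 5257 in level, and 378 and 419 for the interaction, and the differences between library 1 and 2 correlated at 0.11 across peaks between CO2 levels. It changed no call of a named peak. Scaling to 1 median or 1 total, another pseudocount and no mean trend left all counts within 1.5 times. With 2 libraries per group, no comparison of single values can pass an exact test.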

Other observations

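A further run of falls, chosen after its values were seen, formed the end of chromosome 6, where the last 6 peaks in the table (peak5377 to peak5382, 1333084 to 1355509) all passed as lower on both scales (limma, adjusted p under 0.05). Their levels were 0.771 to 0.968 in low-CO2 library 1 and 0.795 to 1.22 in library 2, against 1.53 to 2.42 and 1.62 to 2.62 in the high-CO2 libraries. Kbu was thus near the background at low CO2 at all 6, and modest at high CO2. The second run of 8 falls lay on chromosome 28 from 455276 to 493093 (peak3921 to peak3928), with relative changes from -0.63 to -0.23. The second longest run of rises, 5 peaks on chromosome 27 from 281714 to 302060 (peak3778 to peak3782), held no rise in level, with changes in level from -0.28 to -0.00.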
